A study of Mus musculus with 2 samples.

Results

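C1q+ Csf1r+ cells of tumours were described from 2 single-cell libraries of sorted CD45+ cells, 1 labelled Ythdf2 cKO and 1 labelled WT. A cell was taken when the UMIs of C1qa, C1qb and C1qc together reached 5 per 10000 of its UMIs and it held at least 1 Csf1r UMI. It was left out when it held over 1 UMI of Cd3d, Cd3e and Cd3g together, 5 or more of Mmp12 and Arg1, or 5 or more of the cell cycle genes Mki67, Top2a, Birc5 and Cenpf. This gave 1458 of 22044 cells, with 456 of 9865 in the library labelled cKO and 1002 of 12179 in the library labelled WT. Both libraries came from mice of the strain C57BL/6, and both were made from dissociated tumours with 10x 5′ gene expression chemistry. The gene targeted is Ythdf2, and "cKO" is the labels' only word for the allele. The sources used here do not give the tumour type, the Cre driver, the age of the mice or whether animals were pooled. Each label has 1 library, so no test between the labels was made, and every interval given covers 95% counting error only. UMI counts here are molecules, but the spread between mice is not known.

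C1q is the recognition subunit of the classical complement pathway, and in tumours it is made by tissue macrophages. Csf1r is the receptor for the growth factor that macrophages need to survive. Monocytes that enter a tumour carry Ly6c2 and Ccr2, and lose them as they take on macrophage genes such as C1qa, Apoe, Mrc1 and Ms4a7. Interferon gamma from T and NK cells induces guanylate-binding proteins, the chemokines Cxcl9 and Cxcl10, and antigen presentation in such cells.

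The Ythdf2 transcript went against the labels. Ythdf2 encodes a reader of m6A-modified RNA that promotes its decay, and lies on GRCm38 chromosome 4 from 132184912 to 132212303, minus strand. It was 446 CPM (430 to 463; a gene's UMIs scaled to a common total per library) in the library labelled cKO, against 73.4 CPM (68.2 to 78.9) in that labelled WT. At 6.01-fold (5.60 to 6.60), it was among the 12 genes with the largest ratios on the higher side. In T cells it was 68.9 CPM in the library labelled cKO and 55.6 CPM in that labelled WT, and in C1q-low monocytes it was 378 CPM in the library labelled cKO and 50.6 CPM in that labelled WT. Reads of the 5′ end can lie outside a deleted part, so the level does not check the deletion. Whether the labels of the libraries were exchanged cannot be told from these files, and an exchange would turn every direction below, which is therefore between the libraries as labelled. Of 15 measured genes of the m6A machinery, 1 was at least 1.5-fold higher, which was Ythdf2, and 0 were lower, against 10.4% higher and 16% lower of all genes measured. Its paralogues Ythdf1 and Ythdf3 were 53.7 and 55.0 CPM in the library labelled cKO, against 39.1 and 46.0 CPM in the library labelled WT.

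C1q+ Csf1r+ cells held a median of 13254 UMIs and 3230 genes in the library labelled cKO, and 8735 UMIs and 2663 genes in the library labelled WT. The libraries shared 43 barcodes, none of them of C1q+ Csf1r+ cells. RNA of macrophages was also found in cells that should not make it, and more of it in the library labelled WT. C1q reached 5 per 10000 UMIs in 1.37% of T cells in the library labelled cKO and in 17.0% in the library labelled WT, and it reached 50 per 10000 in 0.0326% of T cells in the library labelled cKO and 0.415% in that labelled WT. The Cd3 limit removed 42.6% of the cells that met the C1q and Csf1r limits in the library labelled cKO and 47.3% in the library labelled WT. Those cells had a median of 30692 UMIs in the library labelled cKO and 25525 in the library labelled WT.

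The share of C1q+ Csf1r+ cells was 4.62% (4.22 to 5.06) in the library labelled cKO and 8.23% (7.75 to 8.73) in the library labelled WT, a ratio of 0.562 (0.502 to 0.628). The largest difference between shares was at high C1q. Cells with C1q of 50 or more per 10000 UMIs made up 1.03% of the library labelled cKO and 4.37% of the library labelled WT, and were thus 4.22-fold (3.41 to 5.27) more frequent in the library labelled WT. Cells with C1q of 20 to 50 per 10000 were 1.38% (1.16 to 1.63) of the library labelled cKO and 1.66% (1.44 to 1.90) of the library labelled WT. At C1q of 5 to 20 the shares were 2.21% (1.93 to 2.52) in the library labelled cKO and 2.20% (1.95 to 2.48) in the library labelled WT. That range can hold cells that carry C1q RNA of others. T cells reached 5 per 10000 in 1.37% of cases in the library labelled cKO and 17.0% in that labelled WT. The part of such RNA in these shares was not tested. The cells were chosen by their UMIs of the C1q, Csf1r, Cd3, Mmp12, Arg1 and cell cycle genes, so shares and C1q levels are given as a description. Just inside the C1q limit, at 5 to 6 per 10000, lay 24 cells of the library labelled cKO and 60 of the library labelled WT, and just outside it, at 4 to 5, lay 22 of the library labelled cKO and 81 of that labelled WT.

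**Figure D1:**
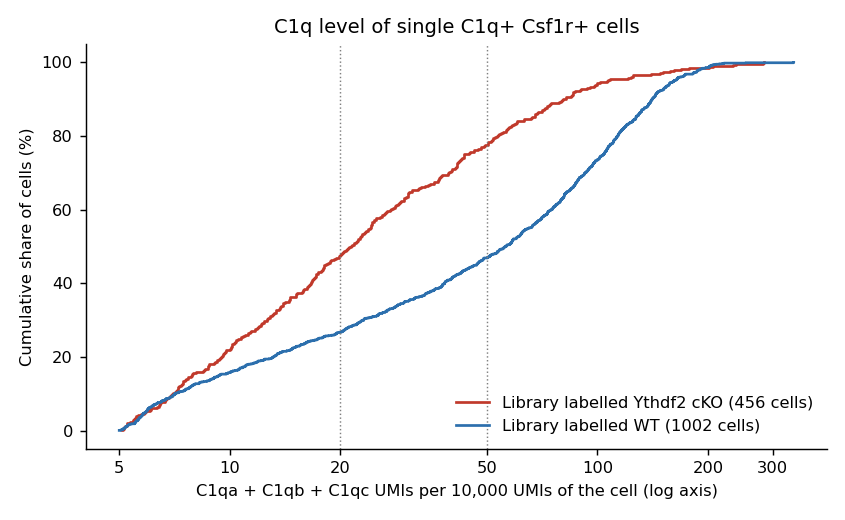
Cumulative share of C1q+ Csf1r+ cells (y axis, percent) by the C1qa, C1qb and C1qc UMIs per 10000 UMIs of the cell (x axis, log scale), 1 line per library, with dotted lines at 20 and 50. The line of the library labelled cKO reaches its middle at 21.4 per 10000 and that of the library labelled WT at 56.3 per 10000.

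The markers went against the name macrophage for most C1q+ Csf1r+ cells of the library labelled cKO, which carried monocyte genes and mostly lacked a UMI of Ms4a7 or Pf4. Each cell was thinned to 4447 UMIs, which left 383 cells of the library labelled cKO, with 73 shallower ones left out, and 801 cells of the library labelled WT, with 201 left out. Ly6c2, a surface marker of inflammatory monocytes, was found in 84.6% (80.6 to 88.1) of cells of the library labelled cKO and in 47.7% (44.2 to 51.2) of cells of the library labelled WT. Ccr2, the receptor that draws monocytes out of the bone marrow, was found in 92.7% of cells in the library labelled cKO and 55.8% in the library labelled WT. The macrophage markers went the other way. Ms4a7 was found in 31.3% (26.7 to 36.2) of cells in the library labelled cKO and 65.3% (61.9 to 68.6) in the library labelled WT, and the F4/80 gene Adgre1 in 35.2% of cells in the library labelled cKO and 62.0% in that labelled WT. The chemokine gene Pf4 was found in 9.40% (6.67 to 12.8) of cells in the library labelled cKO and 65.9% (62.5 to 69.2) in the library labelled WT. The lipid receptor gene Trem2 was in 22.7% of cells in the library labelled cKO and 61.9% in the library labelled WT. Before thinning the shares for Ly6c2 were 88.6% in the library labelled cKO and 52.6% in the library labelled WT, and for Pf4 they were 15.6% in the library labelled cKO and 68.8% in that labelled WT. The cells are therefore called by their rule, C1q+ Csf1r+, in what follows.

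For genes that they should lack, such as Ly6c2 and Pf4, B cells gave the background. They were thinned to 1945 UMIs, and the C1q+ Csf1r+ cells were thinned to the same depth beside them. Ly6c2 was found in 73.0% of C1q+ Csf1r+ cells in the library labelled cKO, against 4.02% of B cells there, and in 36.5% of C1q+ Csf1r+ cells in the library labelled WT, against 6.33% of B cells there. For Pf4 the library labelled cKO gave 7.98% of C1q+ Csf1r+ cells and 1.15% of B cells, and the library labelled WT gave 53.0% of C1q+ Csf1r+ cells and 16.5% of B cells. Apoe was in 50.6% of B cells of the library labelled cKO and 56.5% of those of the library labelled WT. Lyz2 was in 12.6% of B cells in the library labelled cKO and 35.9% in that labelled WT. The source of Apoe in B cells was not tested, and its share of C1q+ Csf1r+ cells was not read as expression.

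**Figure D2:**
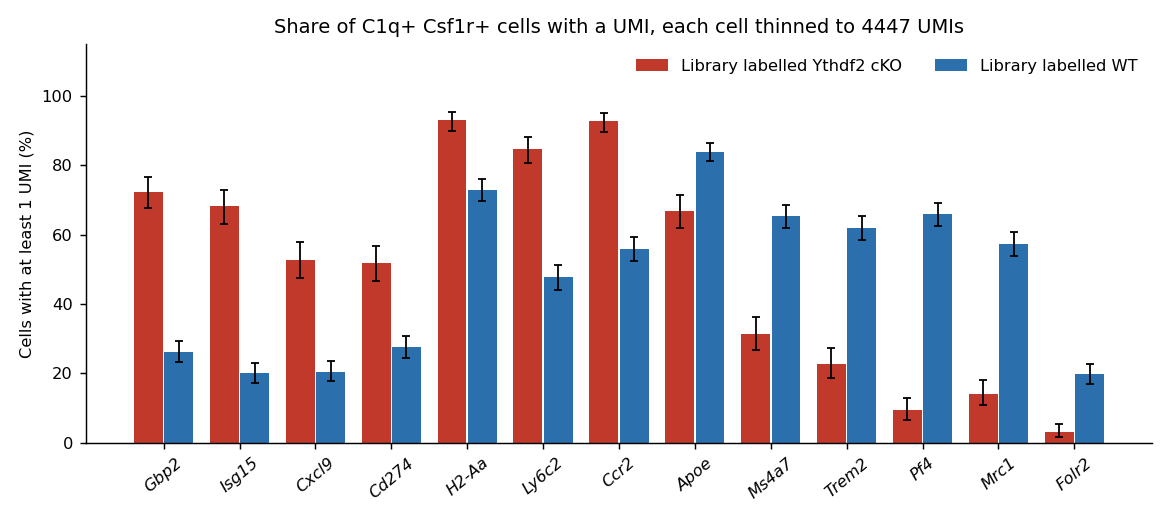
Share of C1q+ Csf1r+ cells with at least 1 UMI of each gene (y axis, percent), with every cell thinned to 4447 UMIs; bars are libraries and error bars are exact binomial 95% intervals. Interferon, MHC class II and monocyte genes are found in more cells of the library labelled cKO, and Ms4a7, Trem2, Pf4, Mrc1 and Folr2 in more cells of the library labelled WT.

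Over the 7756 genes that reached 10 CPM in at least 1 library, 805 (10.4%) were at least 1.5-fold higher and 1243 (16%) at least 1.5-fold lower in the library labelled cKO. The median log2 ratio of these genes was -0.12. Each count of list members over all C1q+ Csf1r+ cells stands against these shares of 10.4% higher and 16% lower. The fold of 1.5 is a size, not a test. With a pseudocount of 10 CPM in place of 1 CPM the lower count became 675, and without the limit of 10 CPM it became 2661.

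Interferon gamma response genes were higher as a group in C1q+ Csf1r+ cells of the library labelled cKO. Of the 24 list members 20 reached 10 CPM, and 20 of these were at least 1.5-fold higher, against 10.4% of all genes. Their median log2 ratio was 1.60 (1.41 to 1.82), and a median's interval is the median of its members' bounds. Gbp2, a guanylate-binding protein that attacks vacuoles of pathogens, was 848 CPM (826 to 871) in the library labelled cKO, against 130.3 CPM (123 to 137) in that labelled WT. Its relatives Gbp5 and Gbp4 were 98.7 and 102 CPM in the library labelled cKO, against 23.1 and 24.6 CPM in the library labelled WT. The immunity-related GTPase genes Iigp1 and Igtp were 122 and 124 CPM in the library labelled cKO and 32.9 and 39.8 CPM in the library labelled WT. Irf1, a transcription factor that interferon induces, was 232 CPM in the library labelled cKO and 96.1 CPM in that labelled WT. The receptor genes Ifngr1 and Ifngr2 differed by less than 1.5-fold, with log2 ratios of 0.17 and 0.28. Nos2, the inducible nitric oxide synthase, had the largest ratio of the list, at 25.7 CPM in the library labelled cKO and 2.26 CPM in the library labelled WT. It was nonetheless found in few cells, 4.96% in the library labelled cKO and 1.25% in the library labelled WT after thinning.

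Chemokines that attract T cells through Cxcr3 were among these genes. Cxcl9 was 1222 CPM (1195 to 1249) in the library labelled cKO, against 246 CPM (236 to 256) in that labelled WT, a ratio of 4.95 (4.75 to 5.20). It was found in 52.7% (47.6 to 57.8) of cells in the library labelled cKO and 20.5% (17.7 to 23.4) in the library labelled WT. At the depth of B cells it was found in 44.8% in the library labelled cKO and 15.5% in that labelled WT, against 2.87% of B cells in the library labelled cKO and 2.95% in that labelled WT. Cxcl9 UMIs were unevenly spread over cells. The tenth of cells with most Cxcl9 held 60.8% of its UMIs in the library labelled cKO and 89.8% in the library labelled WT. Cxcl10 was 1562 CPM in the library labelled cKO and 585 CPM in the library labelled WT. The chemokine gene Ccl5 was 453 CPM in the library labelled cKO and 157 CPM in the library labelled WT, but T and NK cells make it too, and Gzma, a granule protease of NK and T cells, moved with it at 227 CPM in the library labelled cKO and 88.0 CPM in that labelled WT. Whether RNA of those cells has a part in the Ccl5 values was not tested. Cd274, the gene of the checkpoint ligand PD-L1, was 243 CPM in the library labelled cKO and 89.5 CPM in the library labelled WT. Of 13 measured inhibitory ligands and cytokines 4 were higher and 0 lower, against 10.4% and 16% of all genes, and Cd274 had the largest ratio. The cytokine gene Il10, at 55.7 CPM in the library labelled cKO and 46.2 CPM in that labelled WT, differed by less than 1.5-fold.

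Type I interferon genes were also higher in the library labelled cKO, with 19 of 21 members at least 1.5-fold higher, against 10.4% of all genes. Their median log2 ratio was 1.28 (1.19 to 1.52). Isg15, a ubiquitin-like modifier that interferon induces, was 406 CPM (391 to 422) in the library labelled cKO, against 61.6 CPM (56.9 to 66.6) in that labelled WT. It was found in 68.1% (63.2 to 72.8) of cells in the library labelled cKO and 19.98% (17.3 to 22.9) in the library labelled WT. At the depth of B cells the shares were 45.8% in the library labelled cKO and 11.1% in that labelled WT, against 3.45% of B cells in the library labelled cKO and 1.69% in that labelled WT. The antiviral genes Mx1, Ifit2 and Rsad2 were 139, 261 and 701 CPM in the library labelled cKO, against 39.8, 76.8 and 257 CPM in the library labelled WT. The members short of 1.5-fold were Irf9, with a log2 ratio of 0.27, and Ifi27l2a, with a log2 ratio of 0.34.

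Antigen presentation genes followed. Each of 8 measured members of the MHC class II list was at least 1.5-fold higher, against 10.4% of all genes. Their median log2 ratio was 1.09 (1.05 to 1.15). H2-Aa, the alpha chain of I-A, was 3518 CPM (3472 to 3564) in the library labelled cKO, against 1593 CPM (1568 to 1617) in that labelled WT. The invariant chain gene Cd74 was 8512 CPM in the library labelled cKO and 4121 CPM in the library labelled WT. Ciita, the master regulator of MHC class II transcription, was 165 CPM in the library labelled cKO and 71.0 CPM in the library labelled WT. Of 20 genes of MHC class I and its peptide supply 13 were higher, against 10.4% of all genes, with a median of 0.79 (0.70 to 0.87). Among them the peptide transporter gene Tap1 was 329.6 CPM in the library labelled cKO and 149 CPM in the library labelled WT. The classical heavy chain gene H2-K1 differed less, at 1883 CPM in the library labelled cKO and 1599 CPM in the library labelled WT. Reads of the H2-Q genes, of Tgtp1 and Tgtp2, of the Gbp genes and of the Ly6 genes can be split between near-identical copies, and their single values are uncertain.

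Inflammatory genes were higher as well. All 12 that reached 10 CPM were at least 1.5-fold higher, of 15 in the list, against 10.4% of all genes. Their median log2 ratio was 1.12 (0.92 to 1.39). Lists can share members, and Nos2 is in this list and in the interferon gamma list. At C1q of 5 to 20, 20 to 50, and 50 or more per 10000, 7 of 12, 3 of 12 and 9 of 10 were higher. Of all genes 7.41%, 8.5% and 10.9% were higher there. The medians there were 0.62, 0.30 and 0.92. The median was 0.53 in cells with a Ly6c2 UMI and 1.39 in cells without one. Il1b was 957 CPM in the library labelled cKO and 414 CPM in the library labelled WT, and Il1rn, the antagonist of its receptor, was 499.9 CPM in the library labelled cKO and 166 CPM in that labelled WT. Tnf was 596 CPM in the library labelled cKO and 387 CPM in the library labelled WT. In contrast, chemokines for monocytes and neutrophils had 0 of 13 members higher and 5 lower, against 10.4% and 16% of all genes. Their median was -0.09 (-0.16 to -0.02). Pf4 was among the lower members, and is also in the scavenger list described below. Ccl2, which draws Ccr2+ monocytes, was 3127 CPM in the library labelled cKO and 2476 CPM in the library labelled WT, a difference of less than 1.5-fold. Genes named for their size on the higher side but outside these lists were Ifi205, Ly6i, Phf11a, Ifi47 and AA467197, with ratios from 4.54 to 5.39. The alternative pathway gene Cfb, outside the interferon lists too, was 55.3 CPM in the library labelled cKO and 10.7 CPM in the library labelled WT.

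**Figure D3:**
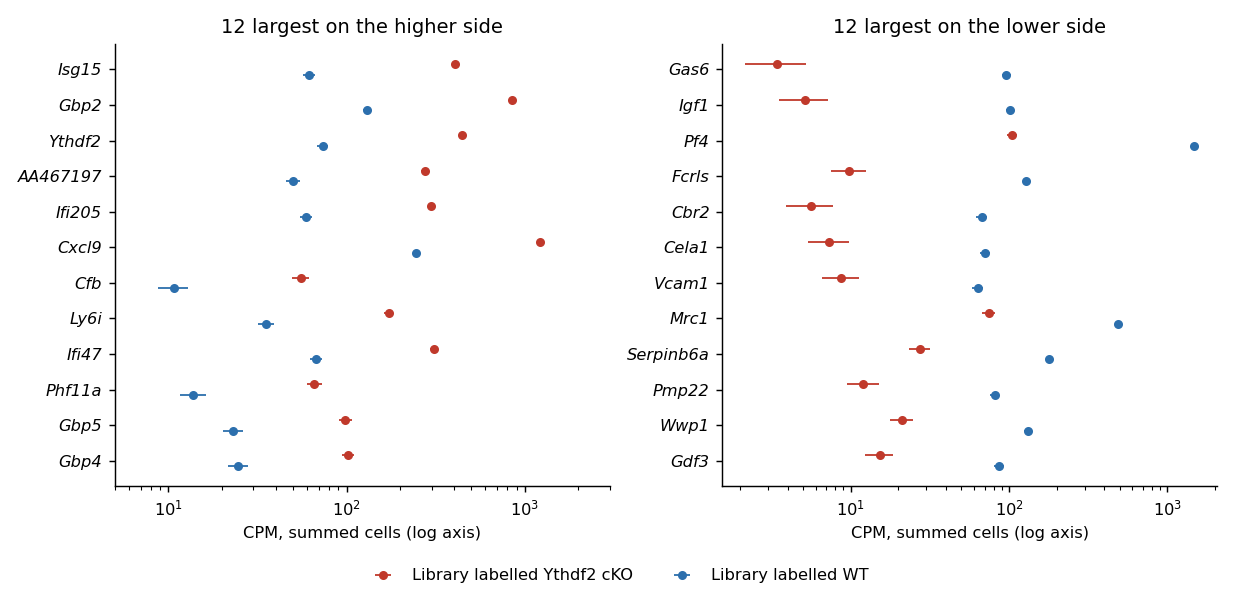
CPM (x axis, log scale) of the 12 genes on each side with the largest ratios under the naming rule, with exact Poisson 95% intervals, in C1q+ Csf1r+ cells. Isg15 and Gbp2 lead the higher side, and Gas6 and Igf1 the lower side, where the library labelled cKO holds 3.43 and 5.14 CPM.

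The promoters of 4 genes named for size are printed, with Isg15, Phf11a and Cxcl9 from the higher side and Pf4 from the lower side. Each window is the 250 bases before the gene's start in RefSeq's table for GRCm38.p6. Capitals mark the core of the interferon-stimulated response element (GAAA, then any 2 bases, then GAAA again), searched on both strands. The gamma-activated site was searched as TTCNNNGAA, and neither Isg15, Phf11a, Cxcl9 nor Pf4 held one in its window. Isg15 (chr4:156200819-156201068, minus strand) held 3 overlapping matches, 78, 72 and 66 bases before the start. Phf11a (chr14:59297523-59297772, minus strand) held 1 match, 29 bases before the start. Cxcl9 (chr5:92328080-92328329, minus strand) and Pf4 (chr5:90772185-90772434, plus strand) held no match, and Cxcl9 is shown because its level went with genes whose windows hold one.
Isg15: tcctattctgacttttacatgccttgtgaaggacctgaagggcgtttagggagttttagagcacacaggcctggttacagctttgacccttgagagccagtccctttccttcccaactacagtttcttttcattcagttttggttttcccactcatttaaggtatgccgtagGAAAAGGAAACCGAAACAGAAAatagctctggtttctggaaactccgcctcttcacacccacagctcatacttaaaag
Phf11a: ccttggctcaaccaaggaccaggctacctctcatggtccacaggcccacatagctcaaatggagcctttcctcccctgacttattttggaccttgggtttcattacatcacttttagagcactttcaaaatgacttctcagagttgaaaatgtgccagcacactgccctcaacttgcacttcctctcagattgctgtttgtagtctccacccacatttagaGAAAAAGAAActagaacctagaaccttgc
Cxcl9: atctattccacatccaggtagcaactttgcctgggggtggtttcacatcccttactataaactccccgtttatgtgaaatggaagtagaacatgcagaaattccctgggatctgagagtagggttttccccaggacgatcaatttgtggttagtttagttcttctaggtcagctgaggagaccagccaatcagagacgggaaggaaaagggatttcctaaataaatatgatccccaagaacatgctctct
Pf4: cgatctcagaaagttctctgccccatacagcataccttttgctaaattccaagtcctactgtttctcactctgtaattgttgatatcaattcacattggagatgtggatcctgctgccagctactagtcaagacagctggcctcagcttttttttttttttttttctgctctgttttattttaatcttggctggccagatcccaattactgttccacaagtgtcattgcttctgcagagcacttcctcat
Among all 27025 genes with a window, 3.46% held the response element core and 8.13% the gamma-activated site. In the interferon gamma list 16 genes had a window, and 12 of them (75%) held the core and 8 (50%) the gamma-activated site. The type I list gave 6 of 16 with the core, the MHC class II list 0 of 7, and the scavenger list described next 1 of 15. Of the genes named for size, 5 of 9 with a window on the higher side and 1 of 9 on the lower side held the core. The 1 on the lower side was Serpinb6a, which also held a gamma-activated site. Ifi47, on the higher side, held neither. The genes of the interferon lists were listed for their known induction by interferon, so the shares describe the lists, and a match is not a binding site.

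Genes of resident-like scavenger macrophages were lower in the library labelled cKO. Of 18 list members 14 reached 10 CPM in at least 1 library. Of these 11 were at least 1.5-fold lower and 0 higher, against 16% and 10.4% of all genes. Their median log2 ratio was -2.08 (-2.33 to -1.92). Gas6, for one, passed that limit only through the library labelled WT, so the count can lean to the lower side. Without the limit the median was -1.34. Mrc1, the mannose receptor CD206, was 74.3 CPM (67.8 to 81.2) in the library labelled cKO, against 486 CPM (473 to 500) in that labelled WT. Pf4 was 104 CPM (96.7 to 113) in the library labelled cKO, against 1469.6 CPM (1446 to 1493) in that labelled WT, 13.9-fold higher in the library labelled WT. Gas6, which bridges dying cells to the uptake receptors Mertk and Axl, was 3.43 CPM (2.15 to 5.19) in the library labelled cKO, against 96.3 CPM (90.4 to 103) in that labelled WT. Igf1, a growth factor, was 5.14 CPM in the library labelled cKO and 101 CPM in the library labelled WT. The folate receptor gene Folr2 was 16.5 CPM in the library labelled cKO and 87.7 CPM in that labelled WT. The scavenger receptor gene Stab1 was 104 CPM in the library labelled cKO and 371 CPM in that labelled WT. The members that differed by less than 1.5-fold were Maf, F13a1 and Mgl2, with log2 ratios of -0.44, -0.43 and 0.38.

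Pf4 and Mrc1 were also found in T cells, which should lack them. Pf4 was 6.71 CPM in T cells of the library labelled cKO and 187 CPM in T cells of the library labelled WT, and Mrc1 there was 3.41 CPM in the library labelled cKO and 30.6 CPM in that labelled WT. The T cell level of Pf4 in the library labelled WT was thus well below that of C1q+ Csf1r+ cells there, and above that of C1q+ Csf1r+ cells of the library labelled cKO. The part of free RNA in the lower values was not tested. The share of cells with Mrc1 was 14.1% (10.8 to 17.99) in the library labelled cKO and 57.4% (53.9 to 60.9) in the library labelled WT, and at the depth of B cells it was 10.3% in the library labelled cKO and 39.4% in that labelled WT, against 0.575% of B cells in the library labelled cKO and 2.95% in that labelled WT. Other lower genes named for size were the adhesion gene Vcam1, the TGF-beta family ligand Gdf3, the ubiquitin ligase gene Wwp1, the carbonyl reductase gene Cbr2, the elastase family gene Cela1, the protease inhibitor gene Serpinb6a and the membrane protein gene Pmp22, with log2 ratios from -3.37 to -2.43. Vcam1 was 8.72 CPM in the library labelled cKO and 63.6 CPM in that labelled WT.

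Lipid-associated genes were lower too, and lysosomal genes were lower over all cells but differed less within ranges of C1q. Of 16 measured lipid-associated macrophage genes 12 were at least 1.5-fold lower and 0 higher, against 16% and 10.4% of all genes. Their median was -1.16 (-1.27 to -1.07). Trem2 was 119 CPM in the library labelled cKO and 479 CPM in the library labelled WT. Apoe, the lipid carrier, was 1297 CPM (1269 to 1325) in the library labelled cKO, against 4676 CPM (4634 to 4718) in that labelled WT. The members that differed by less than 1.5-fold were Plin2, Spp1, Cd9 and Lgals3, and Spp1, which encodes osteopontin, was 638 CPM in the library labelled cKO and 728 CPM in that labelled WT. Of 20 lysosome genes 9 were lower and 1 higher, against 16% and 10.4% of all genes, with a median of -0.50 (-0.62 to -0.43). At C1q of 5 to 20, 20 to 50, and 50 or more per 10000 the lysosome medians were 0.08, -0.28 and -0.26. There 3, 5 and 4 of 20 were lower, against 15.2%, 13.6% and 14.6% of all genes. Higher were 2, 0 and 0 of 20, against 7.41%, 8.5% and 10.9% of all genes. The aspartic protease gene Ctsd was 646 CPM in the library labelled cKO and 2172 CPM in the library labelled WT, whereas Ctss, which trims the invariant chain, was 2179.98 CPM in the library labelled cKO and 1699 CPM in that labelled WT. The lysozyme gene Lyz2, made by monocytes and macrophages alike, was 2930 CPM in the library labelled cKO and 5657 CPM in the library labelled WT.

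Receptors for uptake and for antibody did not go one way. Mertk was 8.72 CPM in the library labelled cKO and 31.2 CPM in the library labelled WT, while its relative Axl was 167 CPM in the library labelled cKO and 94.9 CPM in that labelled WT. The high-affinity IgG receptor gene Fcgr1 was 834 CPM in the library labelled cKO and 359 CPM in the library labelled WT, and Fcgr4 was 281 CPM in the library labelled cKO and 144 CPM in that labelled WT. Fcrls, an Fc receptor-like scavenger gene, was 9.81 CPM in the library labelled cKO and 129 CPM in the library labelled WT. Among the complement genes outside the rule, C3 was 199 CPM in the library labelled cKO and 79.0 CPM in the library labelled WT, and 6 of 8 measured members differed by less than 1.5-fold.

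Monocyte markers were higher, with 7 of 8 at least 1.5-fold higher, against 10.4% of all genes, and a median of 1.52 (1.43 to 1.62). Ly6c2 was 1569.7 CPM in the library labelled cKO and 564 CPM in the library labelled WT. Ccr2 was 1085 CPM in the library labelled cKO and 424 CPM in that labelled WT, and Plac8, a cysteine-rich protein of monocytes, was 3267 CPM in the library labelled cKO and 1014 CPM in that labelled WT. The chitinase-like gene Chil3 was 542 CPM in the library labelled cKO and 175 CPM in the library labelled WT. Vcan, a matrix proteoglycan of monocytes, was the exception, at 134 CPM in the library labelled cKO and 121 CPM in that labelled WT. These markers moved with each gene group above, so the groups were also set side by side by range of C1q and in cells without Ly6c2.

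Within each range of C1q, the interferon groups stayed higher in the library labelled cKO and the scavenger genes lower. The highest range has no upper limit, so C1q was not matched between the libraries within it. Of all C1q+ Csf1r+ cells, 90% lay at or below 80.4 per 10000 in the library labelled cKO and 141 per 10000 in that labelled WT. At C1q of 5 to 20, 20 to 50, and 50 or more per 10000, the interferon gamma list had medians of 1.23 (0.91 to 1.54), 1.46 (0.97 to 1.85) and 1.70 (1.36 to 2.03). At least 1.5-fold higher were 18 of 21, 19 of 21 and 20 of 20 measured members, against 7.41%, 8.5% and 10.9% of all genes. The scavenger list had medians of -1.37 (-1.88 to -0.76), -1.90 (-2.20 to -1.67) and -1.45 (-1.66 to -1.28), with 10, 12 and 11 of 14 members lower, against 15.2%, 13.6% and 14.6% of all genes. Weighted as the C1q levels of the library labelled WT, the scavenger median was -1.34 in place of -2.08. Monocyte markers differed least at low C1q, with medians of 0.41, 0.91 and 2.16. Of 8 measured, 1, 6 and 7 were higher and 1, 1 and 0 lower, against the same shares of all genes. In those 3 ranges the median UMIs per cell were 13506, 12970 and 12600.5 in the library labelled cKO, and 5954, 8479 and 11283 in the library labelled WT.

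The MHC class II difference was larger at higher C1q. Its median was 0.40 (0.26 to 0.46) at C1q of 5 to 20, 0.57 (0.49 to 0.72) at 20 to 50 and 1.71 (1.60 to 1.77) at 50 or more. H2-Aa was 3082, 4028 and 3774 CPM over these ranges in the library labelled cKO, and 2160.1, 2479 and 1157 CPM in the library labelled WT. The lowest of the 3 values stood at the lowest C1q in the library labelled cKO and at the highest C1q in the library labelled WT. The number of members at least 1.5-fold higher was 0 of 9, 4 of 8 and 7 of 8, against 7.41%, 8.5% and 10.9% of all genes.

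Single genes followed their lists. Cxcl9 was 1216, 1110.3 and 1369.8 CPM with rising C1q in the library labelled cKO, and 283, 395 and 189 CPM in the library labelled WT. Gbp2 was 1084, 763 and 472 CPM in the library labelled cKO, and 275, 184 and 71.4 CPM in the library labelled WT, so it was lower at higher C1q in both. Mrc1 was 50.6, 84.5 and 109.8 CPM in the library labelled cKO, and 110.3, 457 and 606 CPM in the library labelled WT. Pf4 was 22.9, 63.0 and 322 CPM in the library labelled cKO, and 394, 1172 and 1877 CPM in the library labelled WT. Ms4a7, a marker that tracked C1q in both libraries, was 81.3, 142 and 731 CPM in the library labelled cKO, and 124, 403 and 1023 CPM in the library labelled WT. Ly6c2 was 1629.9, 1862 and 1085 CPM in the library labelled cKO, and 1329, 1013 and 203 CPM in the library labelled WT. After thinning, Ly6c2 was found at C1q of 5 to 20 in 85.2% of cells of the library labelled cKO and 78.9% of those of the library labelled WT. At 20 to 50 it was in 88.6% of cells of the library labelled cKO and 73.0% of those of the library labelled WT. At 50 or more it was in 78.2% (68.0 to 86.3) in the library labelled cKO and 25.7% (21.7 to 30.0) in the library labelled WT.

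**Figure D4:**
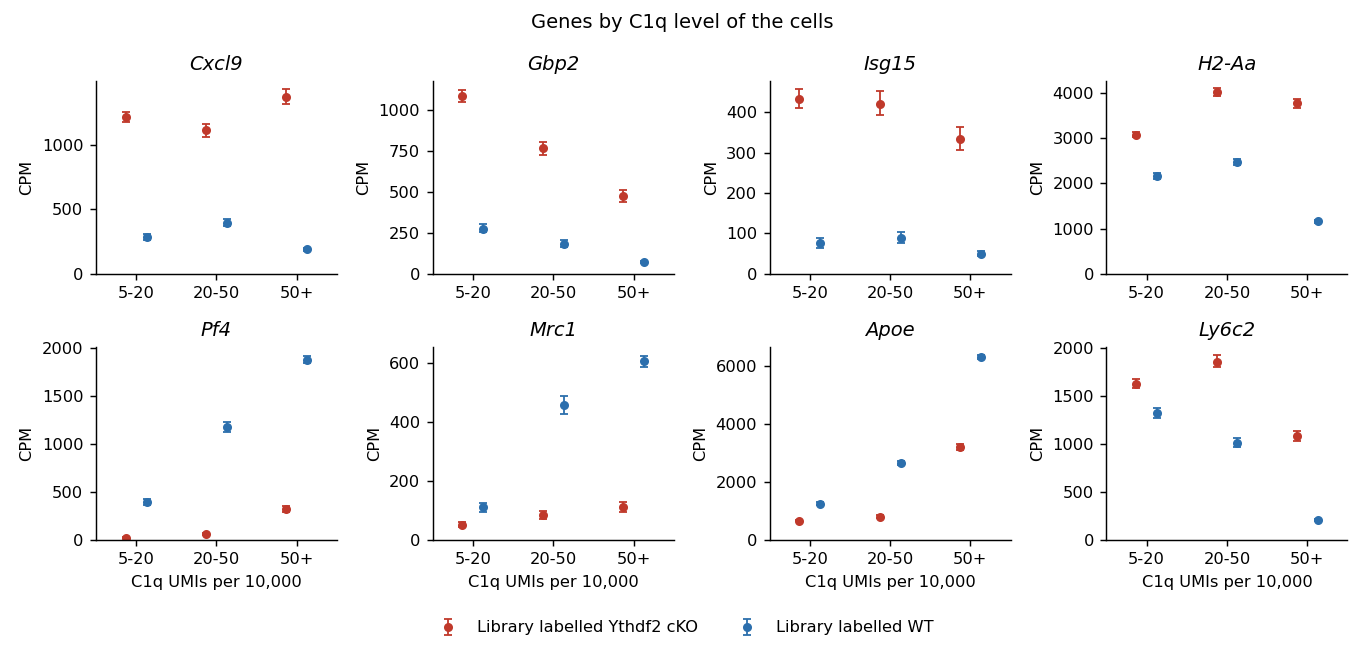
CPM (y axes, linear from 0) of 8 genes in C1q+ Csf1r+ cells by C1q level of the cell (x axes, UMIs per 10000), with exact Poisson 95% intervals, 1 colour per library. Cxcl9, Gbp2, Isg15 and H2-Aa lie higher in the library labelled cKO at each C1q level, Pf4, Mrc1 and Apoe lie lower, and Ly6c2 is at 1085 CPM at the highest C1q in the library labelled cKO against 203 CPM in the library labelled WT.

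Cells without a Ly6c2 UMI numbered 52 in the library labelled cKO and 475 in the library labelled WT, a split chosen after the data were seen. Their median UMIs were 4806 in the library labelled cKO and 8890.0 in the library labelled WT, so cells of the library labelled cKO without Ly6c2 were shallow as a group. Monocyte markers still differed there, with 7 of 7 measured members at least 1.5-fold higher and a median of 2.05 (1.34 to 2.70), against 1.52 over all cells, and Ccr2 was 509 CPM in the library labelled cKO and 119 CPM in that labelled WT. The interferon gamma median there was 1.49 (0.97 to 2.01), with 16 of 20 members higher, against 19% of all genes. The type I median was 0.82 (0.19 to 1.38) in place of 1.28, and the MHC class II median 1.99 (1.87 to 2.12) in place of 1.09. Markers of other cell types moved with these values. Of the cDC2 markers, genes of a type of dendritic cell, 3 of 3 measured were higher, with a median of 2.57 (1.30 to 4.40), and Ccr7, a receptor of migrating dendritic cells, was 80.3 CPM in the library labelled cKO and 10.46 CPM in that labelled WT. NK cell markers had 4 of 6 higher with a median of 1.80, and T cell markers 2 of 3 with a median of 1.21. Their part in the results was not tested. The scavenger median was -1.64 (-2.25 to -1.20), with 13 of 14 members lower, against 17.2% of all genes. Cxcl9 was 301 CPM (250 to 360.0) in such cells of the library labelled cKO and 113 CPM (104 to 123) in those of the library labelled WT. Mrc1 was 158 CPM (121 to 202) in the library labelled cKO, against 595 CPM (573 to 617) in that labelled WT.

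**Figure D5:**
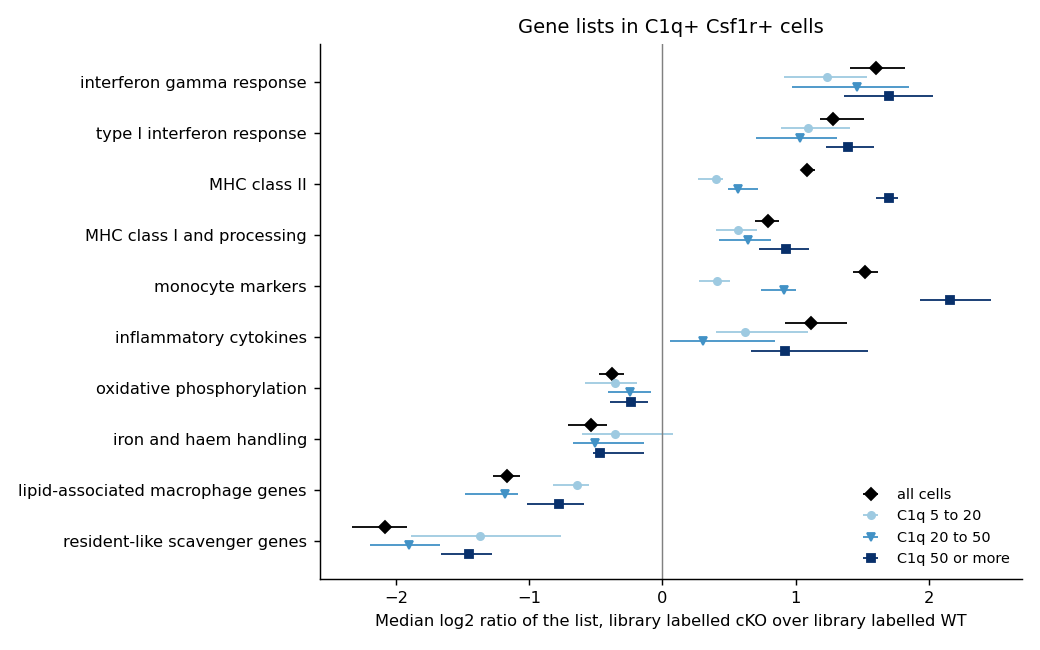
Median log2 ratio (x axis, library labelled cKO over library labelled WT) of 10 gene lists in C1q+ Csf1r+ cells, for all cells and by C1q level, with the medians of the members' 95% counting bounds as bars. The interferon gamma median is 1.60 and the scavenger median -2.08 over all cells, and MHC class II and monocyte markers differ most at C1q of 50 or more.

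Within each library Mrc1 was found in a smaller share of cells with Cxcl9 than of cells without it, though in the library labelled cKO the intervals of these shares overlap. Over thinned cells of the library labelled cKO, Mrc1 was found in 10.4% (6.6 to 15.5) of 202 cells with Cxcl9 and in 18.2% (12.9 to 24.6) of 181 cells without it. In the library labelled WT the shares were 46.3% of cells with Cxcl9 and 60.3% of cells without it. Gbp2 went with Cxcl9, in 82.2% (76.2 to 87.2) of cells with Cxcl9 and 61.3% (53.8 to 68.5) of cells without it in the library labelled cKO. In the library labelled WT it was in 57.3% of cells with Cxcl9 and 18.2% of cells without it. Cells of 1 library share their source, so these shares are descriptions.

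Neighbouring cell groups were measured the same way to see where C1q+ Csf1r+ cells differ. C1q-low Csf1r+ cells with 3 or more Ly6c2 and Vcan UMIs, here called C1q-low monocytes, made up 17.8% of the library labelled cKO and 10.1% of the library labelled WT. The limits on Csf1r, Ly6c2 and Vcan are in raw UMIs. Barcodes kept had a median of 8480 UMIs in the library labelled cKO and 5592 in that labelled WT. The part of depth and of free C1q RNA in these shares was not tested. The interferon gamma median of C1q-low monocytes was 0.94 (0.84 to 1.09), with 17 of 20 members higher, against 3% of all genes. Their MHC class II median was -0.10 (-0.16 to -0.04), with 0 of 8 members higher, and H2-Aa was 1742 CPM in the library labelled cKO and 1798 CPM in the library labelled WT. Of the scavenger list 4 of 9 measured members were lower, against 2.29% of all genes. With no replicate libraries the difference between cell groups was not tested.

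C1q+ cells with 5 or more cell cycle UMIs, 35 in the library labelled cKO and 378 in the library labelled WT, had an interferon gamma median of 1.54 (1.16 to 2.01), with 17 of 19 higher against 12% of all genes. Their scavenger median was -1.38 (-1.73 to -1.04), with 13 of 14 lower against 9.87%. Monocyte markers moved with them, 8 of 8 higher with a median of 1.66, as did 5 of 6 NK cell markers with a median of 1.98, 3 of 3 T cell markers with a median of 1.01 and 4 of 5 cDC1 markers, genes of another type of dendritic cell, with a median of 2.83. C1q+ cells with 5 or more Mmp12 and Arg1 UMIs, 85 in the library labelled cKO and 252 in the library labelled WT, had an interferon gamma median of 1.83 (1.47 to 2.29), with 19 of 20 higher against 12.4%. There the scavenger median was -0.63 (-0.89 to -0.34), with 7 of 14 lower against 10.9%, and 8 of 8 monocyte markers were higher, with a median of 1.69. The part of other cells' RNA in the values of both groups was not tested.

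Markers of other cell types in C1q+ Csf1r+ cells differed between the libraries. Each of 5 measured melanocytic genes was lower, among them Dct, an enzyme of pigment synthesis, at 6.69 CPM in the library labelled cKO and 125 CPM in the library labelled WT. In cells with C1q of 5 to 20 Dct was 3.59 CPM in the library labelled cKO and 553 CPM in that labelled WT. A UMI of Pmel, Dct or Mlana was found in 10.1% of cells in the library labelled cKO and 41.5% in the library labelled WT, while T cells had one in 4.80% in the library labelled cKO and 27.3% in that labelled WT. Over cells without such a UMI the scavenger median was -2.46 and the MHC class II median 0.91, a set chosen after the data were seen. Haemoglobin genes were higher, Hbb-bs at 1561 CPM in the library labelled cKO and 397 CPM in the library labelled WT, and all Hbb-bs UMIs lay in the tenth of cells with most of them. At C1q of 50 or more Hbb-bs was 14.0 CPM in the library labelled cKO and 266 CPM in the library labelled WT. The neutrophil genes S100a8 and S100a9 were 183 and 259.8 CPM in the library labelled cKO, against 66.1 and 106 CPM in the library labelled WT. NK cell markers had 4 of 5 measured members higher and a median of 1.03 (0.68 to 1.49), and the whole list summed to 313 CPM in the library labelled cKO and 140 CPM in that labelled WT, with no member at 0. Of 3 measured T cell markers outside the rule none reached 1.5-fold either way, and Trbc2 was 18.4 CPM in the library labelled cKO and 19.9 CPM in the library labelled WT. The part of these other cells' RNA in the results was not tested.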

How the data were processed

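The files hold raw counts of UMIs for each gene in each barcode, deposited by the authors, who used Cell Ranger 5.0.1 and mm10 per the submitters' processing notes, whereas the file headers name cellranger 5.0.0; the sources used here do not give the counting options. The libraries labelled cKO and WT held 11398 and 14404 barcodes and 121321782 and 128952491 UMIs. Barcodes with at least 200 genes and at most 10% mitochondrial UMIs were kept. The Cd3, Csf1r, Mmp12 plus Arg1 and cell cycle limits were read as raw UMIs. Scrublet, in scanpy 1.11.5, called 1 and 0 doublets, which means that its threshold did not work, so no doublets were removed; leaving out the 779 and 1187 highest scores was an alternative.

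UMIs were summed over cells per library and given as CPM with exact Poisson intervals. The log2 ratio, library labelled cKO over library labelled WT, used a pseudocount of 1 CPM and genes of at least 10 CPM in either library, so a member could pass through the library where it was higher. List medians leave out genes of the rule, and their interval is the median of the members' bounds. Shares have exact Clopper-Pearson intervals. T cells held at least 3 Cd3 UMIs and no Csf1r UMI. Named genes were the 12 with the largest ratios on each side among genes of 50 CPM or more in either library with 100 or more UMIs in all, outside the rule's genes and not under 0.2 of their level in another gated population there; haemoglobin, mitochondrial, antigen receptor, ribosomal protein, sex-linked and unnamed genes were left out. List members were named as examples. The cells, lists and rules were chosen with earlier results of these data known. The computation of ratios, not any difference between the libraries, was checked on simulated Poisson counts of known ratio. Python 3.11.15, numpy 2.4.6, scipy 1.17.1 and pandas 2.3.3 were used. Gene coordinates are GENCODE's for GRCm38.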

Additional observations from a re-analysis of the deposited data

How the results depend on the processing

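No paired analysis was possible because each label has 1 library. Of the log2 medians of gene lists, the interferon gamma response median was 1.60 and became 1.29 with equal weight per cell, and the type I interferon response median of 1.28 became 1.13. That weighting also gave 0.83 for the MHC class II median, -1.57 for the resident-like scavenger genes median and 1.19 for the monocyte markers median. With C1q of at least 20 per 10000 these 3 medians were 1.37, -1.74 and 1.83, and the log2 ratio of the member share was -1.32 in place of -0.83. The MHC class II median of 1.09 was 1.19 with the Mmp12 plus Arg1 and cell cycle limits per 10000, 1.01 with at most 5% mitochondrial UMIs, 1.02 with no Cd3 UMI, 1.05 without the highest doublet scores, 1.17 with median-of-ratios scaling and 0.87 in cells thinned to 1 depth. The monocyte markers median of 1.52 was 1.40 with at most 5% mitochondrial UMIs, 1.22 in thinned cells and 1.13 with C1q levels weighted as in the library labelled WT. The resident-like scavenger genes median of -2.08 was -1.81 with a pseudocount of 10 CPM, -1.34 with no filter on low values and -1.34 with that C1q weighting. Genes lower by 1.5-fold numbered 675 with that pseudocount and 2661 with no filter.

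Over cells without a Ly6c2 UMI, chosen after the data were seen, as were the next 2 sets, genes higher by 1.5-fold numbered 1593. There the type I interferon response, MHC class II, resident-like scavenger genes and monocyte markers medians were 0.82, 1.99, -1.64 and 2.05, and the member share -2.89. Over cells with C1q of 50 or more the MHC class II, resident-like scavenger genes and monocyte markers medians were 1.71, -1.45 and 2.16, and the member share -2.08. Over cells with no Pmel, Dct or Mlana UMI the MHC class II and resident-like scavenger genes medians were 0.91 and -2.46. Several lists changed sign, among them gene lists with small medians. The growth and tissue remodelling factors median of -0.20 was 0.28 without Ly6c2. At C1q of 50 or more the monocyte and neutrophil chemokines median of -0.09 was 0.03. The median of early response genes that dissociation induces, 0.22 over all cells, was -0.14 there. Marker lists of other cell types reversed too. The erythroid markers median of 1.67 was -3.75 at C1q of at least 20 and -3.70 at 50 or more, the neutrophil markers median of 1.37 was -0.25 without Ly6c2, and the pDC markers median of -0.65 was 0.39 at C1q of at least 20, 0.14 with no filter and 0.10 in thinned cells. The cause of these differences was not tested.

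With 1 library per label the spread between mice is not known, and depth differs between the libraries. Genes of few UMIs, such as Nos2, Il27 and Ccl22, have wide intervals. The ratios of scavenger genes rest on 22 to 671 UMIs per gene for the 5 with the largest ratios in the library labelled cKO.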

Other observations

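Growth and tissue remodelling factors went in both directions in C1q+ Csf1r+ cells. Of 17 measured members 3 were at least 1.5-fold higher and 7 lower in the library labelled cKO, against 10.4% and 16% of all genes. Inhba, a subunit of activin A, was 56.7 CPM in the library labelled cKO and 12.9 CPM in that labelled WT. Tgfbi, a matrix protein that TGF-beta induces, was 2045 CPM in the library labelled cKO and 923 CPM in that labelled WT. The protease inhibitor gene Timp2 was 78.2 CPM in the library labelled cKO and 316 CPM in that labelled WT. Inhba depended on the C1q level. It was 90.1 CPM in the library labelled cKO and 24.0 CPM in that labelled WT at C1q of 5 to 20, and 10.6 CPM in the library labelled cKO and 11.2 CPM in that labelled WT at 50 or more.

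Of 23 oxidative phosphorylation genes 0 were higher and 3 lower, with a median log2 ratio of -0.38, and of 20 genes of glycolysis and hypoxia 4 were higher and 1 lower, with a median of 0.23. These counts, and those of the next 2 lists, stand against 10.4% higher and 16% lower of all genes. The glucose transporter gene Slc2a1 was 199 CPM in the library labelled cKO and 119 CPM in that labelled WT. Of 23 macrophage transcription factors 4 were higher and 3 lower, which is near the shares over all genes. Cebpb, a factor of inflammatory myeloid cells, was 1362 CPM in the library labelled cKO and 699 CPM in that labelled WT, and Bhlhe41 was 5.76 CPM in the library labelled cKO and 38.2 CPM in that labelled WT. Early response genes that dissociation induces had a median of 0.22, with 4 of 16 higher and 0 lower, among them Nfkbia.

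S and G2M genes outside the rule had a median of -1.85. Of 14 measured, 12 were lower and 0 higher, against 16% and 10.4% of all genes. The rule's cell cycle limit is in raw UMIs, and median UMIs were 13254 in the library labelled cKO and 8735 in that labelled WT. Within the limit, 61 of 456 cells of the library labelled cKO and 214 of 1002 of that labelled WT held 1 cell cycle UMI. The part of such cells in these values was not tested. Mcm3, a subunit of the replication helicase, was 15.9 CPM in the library labelled cKO and 72.9 CPM in that labelled WT. Among cells that met every other limit, 4 in the library labelled cKO and 21 in that labelled WT held 5 cell cycle UMIs, just outside the limit. At 4 UMIs, just inside it, were 3 cells of the library labelled cKO and 27 of that labelled WT.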
